A study of Mus musculus with 10 samples.

Results

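Transcripts of 6 fetuin and cystatin genes, *Ahsg*, *Fetub*, *Hrg*, *Cst3*, *Cst6* and *Cstb*, were examined in AtT20 cells with and without knockdown of the transcription factor gene *Creb3l1*. They were 6 of the 53801 genes in the count table, and 5 of them passed the filter on low counts that left 14336 genes for testing. The set was chosen on this same contrast, because *Ahsg* was abundant and fell by close to 1 log2 unit. The differences of the members between the lines are therefore given as a description, with no p-value and no call.

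AtT20/D16v-F2 is a mouse corticotroph line derived from a pituitary tumour. Cells grown in medium with fetal bovine serum carried a lentivirus that stably expressed either a non-targeting control shRNA (5 libraries) or a *Creb3l1* shRNA (5 libraries). Both groups were thus transduced, the labels name no further treatment of either, and each is 1 stable line, so that the line and its shRNA cannot be told apart. The bases that the 2 hairpins carry define the comparison and are shown first.

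*Creb3l1* shRNA: gagtcggatttcctcaacaat
non-targeting shRNA: atcatgttaggcgtacggact

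The cystatins are inhibitors of papain-like cysteine proteases, the group to which most lysosomal cathepsins belong. Cystatin C (*Cst3*) and cystatin E/M (*Cst6*) are secreted, whereas cystatin B (*Cstb*) stays in the cytosol. Fetuin-A (*Ahsg*), fetuin-B (*Fetub*) and histidine-rich glycoprotein (*Hrg*) carry cystatin-like domains but have other tasks, and in the body they are made above all by hepatocytes and released into plasma. Fetuin-A binds calcium phosphate and keeps it in solution, fetuin-B inhibits the egg protease ovastacin, and histidine-rich glycoprotein binds heparin, haem and plasminogen.

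The libraries held 17420698 to 22205107 counts, and a normalised count is a count scaled to their mean effective size. *Creb3l1*, the targeted gene, fell from 3689 ± 148 to 1089.97 ± 59.2 normalised counts (mean ± SD, n = 5 libraries each), which is -1.76 as a log2 fold change (standard error, SE, 0.038). The corticotroph markers *Pomc* and *Tbx19* were abundant in both lines. *Crhr1* was low, at 29.2 ± 6.09 normalised counts in the non-targeting line and 26.9 ± 10.3 in the *Creb3l1* shRNA line, and *Avpr1b* had no count. Of the corticotroph markers 5 of 6 passed the count filter, against 1 of 10 markers of other pituitary cells. Replicate 3 of the non-targeting line stood apart, with 4.13% of its counts in *Gm42418* against 0.106% to 0.191% in the other 9 libraries. Without this library the log2 fold changes were -0.95 for *Ahsg*, -0.78 for *Fetub*, 0.38 for *Cst3*, -1.29 for *Cst6* and -0.20 for *Cstb*, close to the values with it that follow. Replicate 2 of the *Creb3l1* shRNA line differed more from its group (chi-square per degree of freedom 5.49 to 9.26, against 2.28 to 3.37 between the other 4), and without it the values were -0.94, -0.76, 0.37, -1.33 and -0.18 in the same order and 5815 genes of the whole table had an edgeR adjusted p under 0.01, in place of 5628.

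The 3 fetuin-type genes lie next to each other on mouse chromosome 16, all on the forward strand (GRCm38). *Ahsg* (ENSMUSG00000022868) spans chr16:22891277-22899449, *Fetub* (ENSMUSG00000022871) chr16:22918334-22939778 and *Hrg* (ENSMUSG00000022877) chr16:22951072-22961656. The gap between *Ahsg* and *Fetub* is 18.9 kb, that between *Fetub* and *Hrg* is 11.3 kb, and the whole block covers 70.4 kb. The cystatin genes are elsewhere, *Cst3* (ENSMUSG00000027447) at chr2:148871722-148875692 on the reverse strand, *Cst6* (ENSMUSG00000024846) at chr19:5344705-5349574 on the reverse strand and *Cstb* (ENSMUSG00000005054) at chr10:78425669-78427622 on the forward strand.

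The bases before a start site of *Ahsg* and of *Fetub* are shown because these neighbours were both lower in the *Creb3l1* shRNA line. RefSeq promoter windows (GRCm38.p6, 250 bases before and 50 bases after a start site) were at hand for 4 of the 6 members, *Ahsg*, *Fetub* (2 start sites), *Hrg* and *Cst3*. The first sequence is chr16:22891765-22892014 and the second chr16:22918132-22918333, both on the forward strand. The *Ahsg* sequence precedes the RefSeq start site at position 22892015 but lies inside the annotated *Ahsg* span, because longer transcripts start before it, and it holds 0 bases of annotated exons. The *Fetub* sequence ends where the first annotated *Fetub* exon begins. Capitals mark TGTTTGC, a form of the core bound by forkhead factors such as FOXA proteins.

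*Ahsg* before the RefSeq start: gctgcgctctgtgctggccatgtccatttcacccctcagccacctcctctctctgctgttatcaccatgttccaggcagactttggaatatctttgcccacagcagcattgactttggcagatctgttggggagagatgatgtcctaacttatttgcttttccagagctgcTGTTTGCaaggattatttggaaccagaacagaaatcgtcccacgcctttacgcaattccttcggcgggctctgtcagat
*Fetub* before the first exon: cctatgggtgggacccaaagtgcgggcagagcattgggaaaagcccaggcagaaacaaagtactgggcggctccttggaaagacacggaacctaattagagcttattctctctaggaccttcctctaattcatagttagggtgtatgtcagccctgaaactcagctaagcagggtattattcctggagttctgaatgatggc

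Neither GACGTG, the G-box core that the study examined in the *Pcsk1* promoter, nor CACGTG was found on either strand of the 5 member windows, while 6.38% and 7.15% of the 32851 windows in the table held them. The TGTTTGC motif was found in the *Ahsg* window, 79 bases before the start site, and in the first *Fetub* window, 42 bases before it, and 5.07% of all windows held it on either strand. In *Fetub* it falls inside an annotated exon, with TATAAA, the TATA box, which 13.6% of all windows held, just downstream of it. The related TGTTTAC (3.65% of windows) was found in the second *Fetub* window, 236 bases before that start site, and CCAAT (37.4%) in 3 of the 5 member windows. The longest run of bases that both windows share is CTGTTTGCAAG, 11 bases that include this motif. The 30 bases around it are chr16:22891924-22891953 for *Ahsg* and chr16:22918328-22918357 for *Fetub*, with TGTTTGC and TATAAA in capitals. These matches describe letters in the windows, and binding was not measured here.

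*Ahsg* shared site: ttccagagctgcTGTTTGCaaggattattt
*Fetub* shared site: gatggcgcactcTGTTTGCaagaTATAAAa

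*Ahsg* had the highest level of the 6 members in both lines. To compare genes with each other, counts were divided by exon length and scaled to the same total in every library (TPM). The *Ahsg* level was 1526 ± 120 TPM in the non-targeting line (mean ± SD, n = 5), rank 37 of the 14336 genes tested. At 853.8 ± 13.2 TPM in the *Creb3l1* shRNA line it held rank 99. For scale, *Cpe*, which encodes a carboxypeptidase of secretory granules, stood at 1168 ± 99.9 TPM in the control line. Protein was not measured here.

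The normalised counts of *Ahsg* in the non-targeting libraries were 20859.9, 20628, 20727, 21733 and 21123 in replicates 1 to 5. The *Creb3l1* shRNA libraries held 10886, 11153, 10897, 10958 and 10934.5. Every *Creb3l1* shRNA library was below every control library, with no overlap. The means were 21014 ± 443 and 10966 ± 108.8, a log2 fold change of -0.94 (SE 0.020), which left 52.2% of the control level. In these bulk libraries, fewer cells that express a gene and less of its RNA per cell cannot be told apart.

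A second gene annotated on the strand opposite to *Ahsg*, *Gm30505*, shares 62 of its 2197 exon bases. It was not analysed here, and the strand setting of the counting is not stated.

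*Fetub* was expressed at a lower level than *Ahsg* and was also lower in the *Creb3l1* shRNA line. Its normalised counts were 2839, 2793, 2765, 2941 and 2773 in the control libraries. With the *Creb3l1* shRNA they were 1662, 1634, 1649.85, 1668 and 1685. The groups did not overlap, and the libraries of each line lay within a few per cent of each other. The means of 2822 ± 72.2 and 1659.7 ± 19.0 gave a log2 fold change of -0.77 (SE 0.028), or 58.8% of control.

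*Hrg*, the third gene of the block, had no count in 9 of the 10 libraries and 2 counts in replicate 3 of the *Creb3l1* shRNA line. The 0 counts of 99380436 in the control line allow up to 0.0302 CPM (counts scaled as TPM but without division by length). In the other line the 2 counts of 103415535 correspond to 0.0193 CPM (exact Poisson 95% interval 0.00234 to 0.0699, counting error only). *Hrg* did not enter the test and no fold change is given. The block thus held a gene among the 37 most abundant per length in the control line and, 2 places downstream, one that was not detectable at this depth in that line.

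*Ahsg* and *Fetub* did not change by quite the same factor. The ratio of *Ahsg* to *Fetub* normalised counts was 7.35 to 7.62 in the control libraries and 6.49 to 6.82 in the *Creb3l1* shRNA libraries. The ranges did not overlap, and the mean log2 ratio changed by -0.17 with the knockdown. Summed over both genes, the fetuin level went from 1755 ± 139 to 998.5 ± 13.1 TPM. The fall of each gene was smaller by TPM than by normalised counts.

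**Figure D1:**
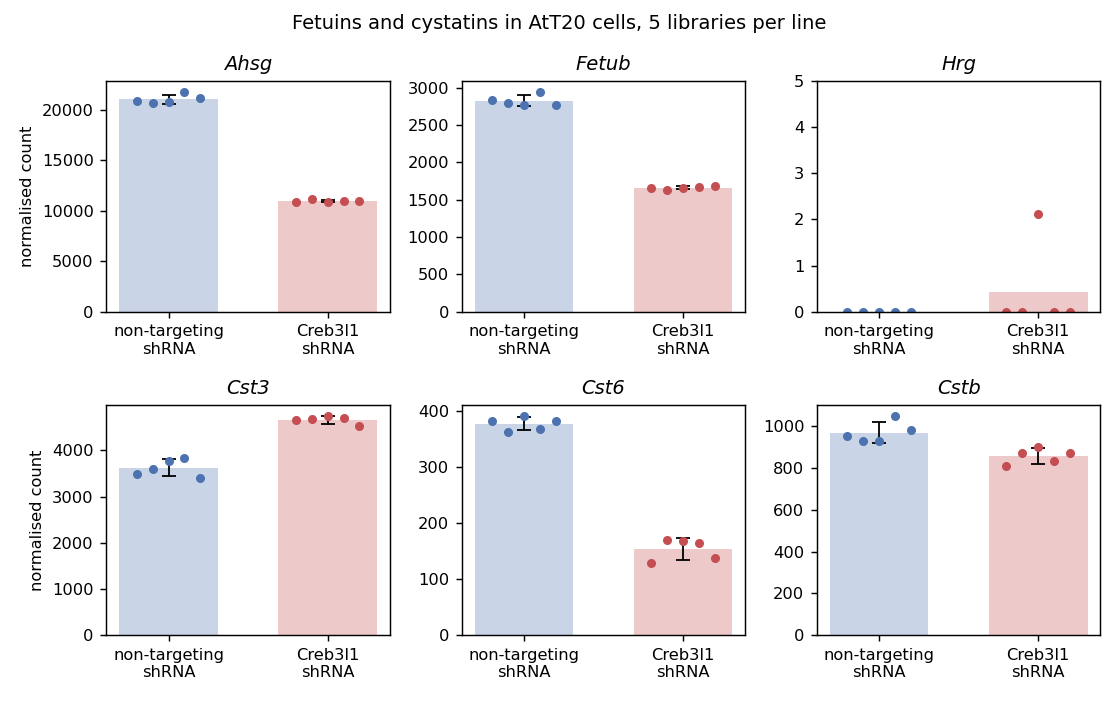
Normalised counts (vertical axes, each from 0) of the 6 members in the 5 non-targeting and 5 *Creb3l1* shRNA libraries. Points are libraries, bars are means and error bars are SD (none for *Hrg*); *Ahsg*, *Fetub*, *Cst6* and *Cstb* were lower and *Cst3* higher in every knockdown library than in every control library, and *Hrg* was at 0 in 9 libraries.

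The cystatins went in different directions. *Cst3*, the secreted inhibitor present in most body fluids, had the highest level of the 3. Its normalised counts were 3489, 3599, 3773, 3836 and 3398 in the control libraries. They were 4657, 4677, 4745, 4706 and 4522 in the *Creb3l1* shRNA libraries, all above the highest control. The means of 3619 ± 185 and 4662 ± 84.7 gave a log2 fold change of 0.37 (SE 0.033), and *Cst3* was the only tested member that was higher.

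*Cst6*, which inhibits legumain as well as cathepsins, had the largest log2 fold change of the members. The control libraries held 382, 362, 391, 367 and 381 normalised counts. The *Creb3l1* shRNA libraries held 129, 170.2, 168, 165 and 137, the lowest being replicates 1 and 5. The groups were far apart, but the knockdown libraries varied more among themselves (coefficient of variation 12.6%) than those of any other member that passed the filter. *Cst6* also had the fewest counts of these members, 140 to 174 raw counts in each knockdown library, so that counting error weighs more. The means were 377 ± 11.8 and 154 ± 19.4, a log2 fold change of -1.30 (SE 0.079), which left 40.7% of control.

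*Cstb*, the intracellular inhibitor, differed least. Its normalised counts were 952, 927, 925, 1048 and 978 in the control libraries and 807, 871, 899, 830.0 and 869 in the *Creb3l1* shRNA libraries. The highest knockdown library, at 899, came close to the lowest control library, at 925. The means were 966 ± 50.5 and 855 ± 36.5, with a log2 fold change of -0.18 (SE 0.041). With offsets for GC content and gene length the log2 fold change was -0.061, and on the TPM scale the libraries of the 2 lines overlapped (213.7 to 282.1 against 227.2 to 256.1 TPM). The value of 213.7 was that of replicate 3 of the non-targeting line, which stood apart. The next lowest control library, replicate 2 at 254.6 TPM, was still below replicate 3 of the *Creb3l1* shRNA line at 256.1.

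Within the cystatins the balance of transcripts shifted between the lines. The *Cst6* to *Cst3* ratio of normalised counts was 0.0957 to 0.112 in the control libraries and 0.0276 to 0.0364 in the *Creb3l1* shRNA libraries. The *Cstb* to *Cst3* ratio was 0.245 to 0.288 and 0.173 to 0.192. Neither pair of ranges overlapped. Because *Cst3* makes up most of the sum, the summed level of the 3 cystatins was 725.5 ± 53.0 TPM in the control line and 878.9 ± 20.9 TPM in the knockdown line. By TPM the rise of *Cst3* was larger, and the fall of *Cstb* smaller, than by normalised counts.

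**Figure D2:**
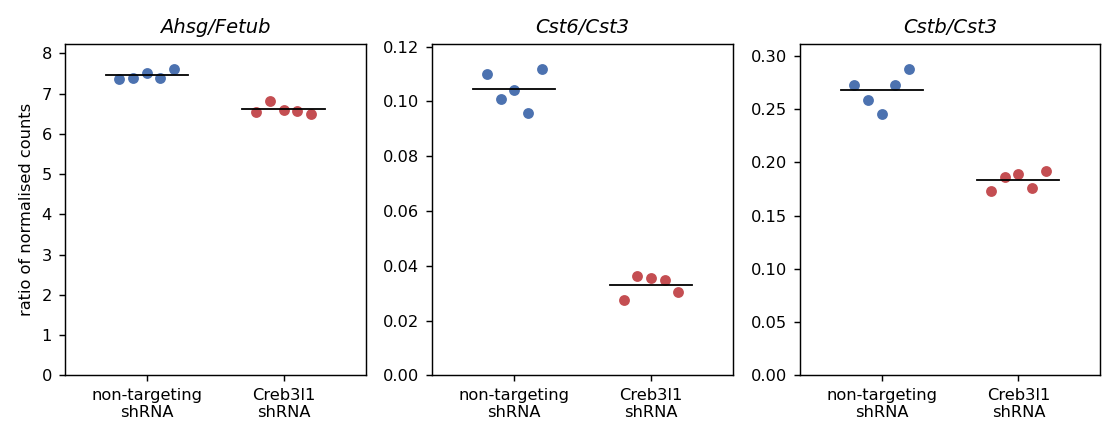
Ratios of normalised counts between members (vertical axes, each from 0) in each library. Points are libraries and lines are means; the *Ahsg* to *Fetub* ratio was 7.35 to 7.62 in control and 6.49 to 6.82 in knockdown libraries, and both cystatin ratios were lower in every knockdown library.

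Per length, the order in the control line was *Ahsg* (1526 TPM), *Cst3* (455.1 ± 29.1), *Cstb* (255.7 ± 25.6), *Fetub* (229.5 ± 19.0), *Cst6* (14.67 ± 0.855) and *Hrg* (0). *Cstb* and *Fetub*, neighbours in this order, overlapped across libraries (213.7 to 282.1 and 196.3 to 243.3 TPM), but only through replicate 3 of the non-targeting line. In the other control libraries *Cstb* was at 254.6 to 282.1 and *Fetub* at 232.5 to 243.3 TPM. Within each library of both lines *Cstb* was above *Fetub*. The other neighbours did not overlap. In the *Creb3l1* shRNA line the order was the same, *Ahsg* (853.8), *Cst3* (629.8 ± 12.2), *Cstb* (242.6 ± 11.9), *Fetub* (144.7 ± 1.42), *Cst6* (6.434 ± 0.833) and *Hrg* (0.03667 on average). There *Cstb* and *Fetub* did not overlap, and *Cst3* stood at rank 151, up from 229.

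Of the 5 members that passed the filter, 1 was higher and 4 were lower, and in all 5 the libraries of the lines did not overlap, as in 36.0% of all genes tested. Since the contrast was used to choose the set, nothing is read from these counts. The median absolute log2 fold change was 0.154 over all genes tested, and larger absolute changes than that of *Ahsg* were found for 3.68% of genes, of *Fetub* for 5.45%, of *Cst3* for 19.7%, of *Cst6* for 1.74% and of *Cstb* for 44.2%.

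**Figure D3:**
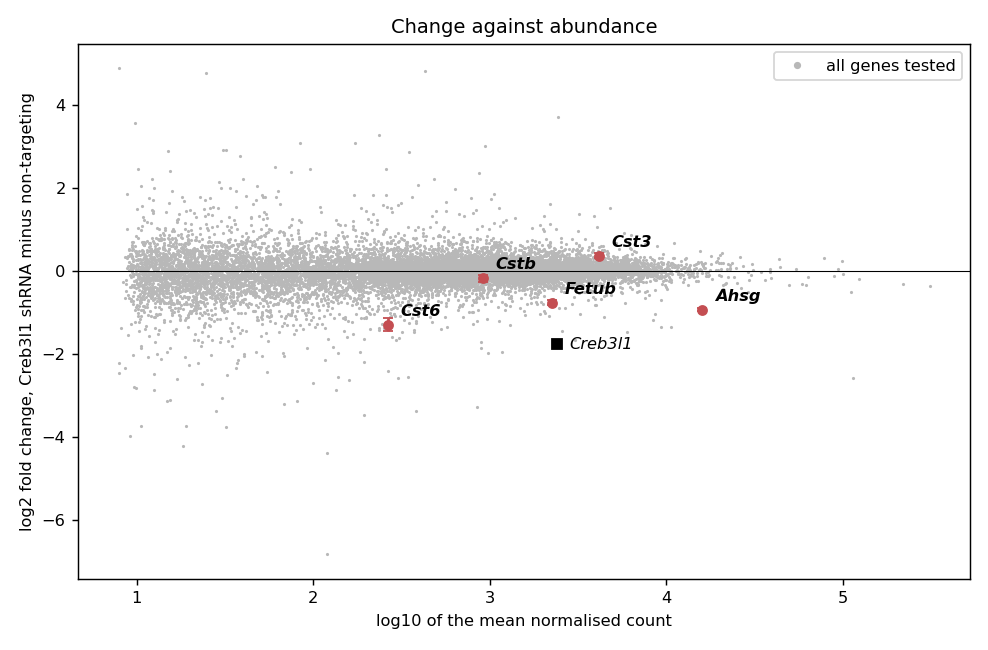
Log2 fold change (*Creb3l1* shRNA minus non-targeting, vertical axis) against log10 of the mean normalised count (horizontal axis) for the 14336 genes tested, in grey. Red points are the members with 95% intervals (1.96 SE) and the black square is *Creb3l1*; *Ahsg*, the most abundant member, lies at -0.94 and *Cst6*, the least abundant of the 5, at -1.30.

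Genes outside the set were tested with edgeR's quasi-likelihood model at the study's threshold, an adjusted p (Benjamini-Hochberg, over all genes tested) of 0.01. Over all genes tested 39.3% passed, 19.9% as higher and 19.4% as lower, which is the background for every count that follows.

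The remaining members of the cystatin superfamily were nearly silent in these cells. Of 27 other listed genes, 25 were in the table, 16 had no count in any library and 2 passed the filter. *Kng2*, which encodes a kininogen, the precursor of kinin peptides and itself a cystatin-type inhibitor, was 1 of the 2. It had 47, 35, 29, 46 and 42 raw counts in the control libraries and 8, 6, 5, 6 and 6 in the knockdown libraries. It fell from 40.5 ± 4.77 to 6.05 ± 0.845 normalised counts (log2 fold change -2.72, SE 0.22, edgeR adjusted p = 2.19e-09). With so few counts in the knockdown line it passed the filter through the control line, and it left the test when at least 10 counts were demanded in every library. *Cstl1* had a log2 fold change of -0.26 (SE 0.16, edgeR adjusted p = 0.176) and did not pass.

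*Kng2* is also the nearest tested gene downstream of the fetuin block, 24.2 kb beyond *Hrg*. The 12 nearest tested genes, 6 on each side, included 3 that rose, 3 that fell and 6 that did not pass (39.3% of all genes passed), with a median log2 fold change of -0.10 against -0.00245 over all genes tested. *Kng2*, among those that fell, passed the filter through the control line, so that this tally depends in part on the filter. The nearest gene on the *Ahsg* side, *Dnajb11*, an endoplasmic reticulum chaperone gene 11.6 kb away from the block, rose by a log2 fold change of 0.16 (SE 0.028, edgeR adjusted p = 5.06e-05). *Eif4a2* (0.14) and *Tra2b* (0.12) also rose, by about as little. Farther downstream *St6gal1*, a sialyltransferase gene, and *Rtp1* both fell by 0.55 on the log2 scale (SE 0.046 and 0.034, edgeR adjusted p = 4.18e-09 and 4.31e-11). The values for those that did not pass were -0.05 for *Etv5*, -0.35 for *Gm15651*, -0.08 for *Dgkg*, -0.09 for *Tbccd1*, -0.13 for *Gm24616* and -0.11 for *Rfc4*.

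Around the 3 cystatin genes, the 3 nearest tested genes on each side were read in the same way. Beside *Cst3*, which was higher, *Napb* fell by 0.61 on the log2 scale (SE 0.045, edgeR adjusted p = 7.01e-10), *Gzf1* fell by 0.13, and the other 4 did not pass. Beside *Cst6*, *Sart1* (0.25) and *Sf3b2* (0.09) rose and *Banf1* fell by 0.21, while the other 3 did not pass. Beside *Cstb*, *Agpat3* (0.09) rose and the other 5 did not pass. Over all 30 neighbours of the 4 places, 6 rose, 6 fell and 18 did not pass, a share near the 39.3% of all genes that passed. Of these, *Gzf1*, *Sf3b2*, *Agpat3*, *Tra2b* and *Banf1* lost their call under at least 1 alternative or without at least 1 library. *Kng2* left the test when at least 10 counts were demanded in every library.

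**Figure D4:**
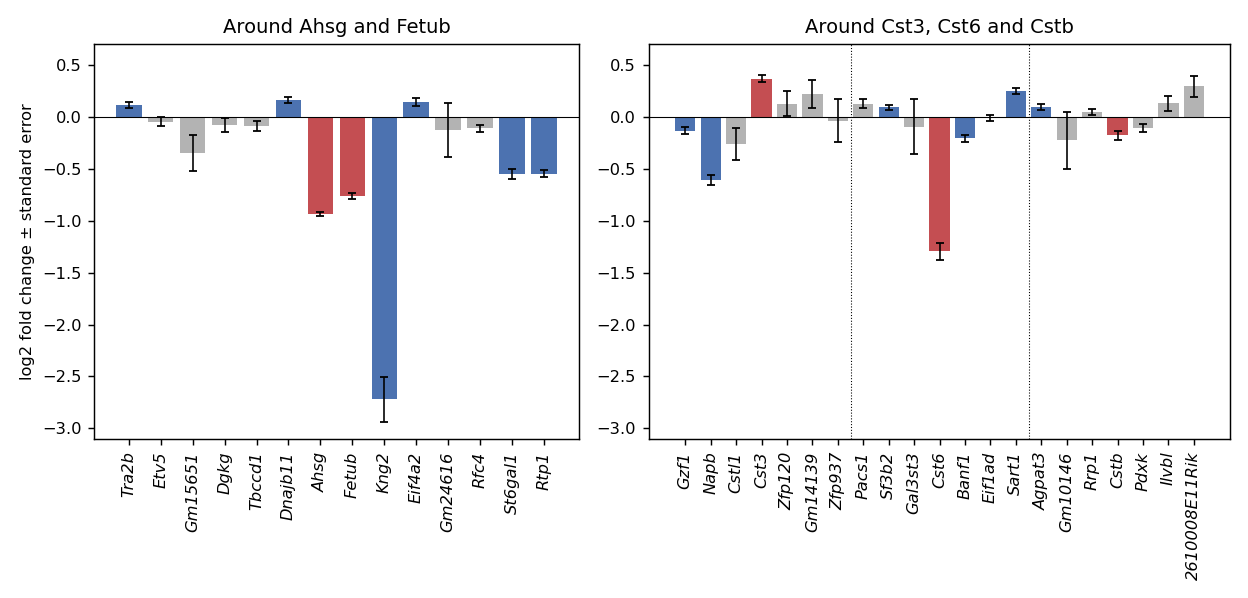
Log2 fold change with SE (vertical axis) of members (red) and their nearest tested neighbours in chromosomal order, blue where the edgeR adjusted p was under 0.01 and grey otherwise. *Ahsg* (-0.94), *Fetub* (-0.77) and *Kng2* (-2.72) are adjacent among tested genes, between *Dnajb11* (0.16) and *Eif4a2* (0.14). *Kng2* passed the count filter through the control line, where it was higher. Dotted lines part the surroundings of *Cst3*, *Cst6* and *Cstb*.

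The tested proteases that cystatins inhibit were mostly lower in the *Creb3l1* shRNA line. All but *Ctsl* differed by more than the median absolute log2 fold change over all genes tested, 0.154. Of 11 listed, 5 passed the filter, 4 of which fell (19.4% of all genes) and 1 rose (19.9%), with a median log2 fold change of -0.29, and none reached 1.5-fold. *Lgmn*, which encodes legumain, a target of *Cst6* though not of it alone, fell from 932 ± 28.1 to 717 ± 13.4 normalised counts (log2 fold change -0.38, SE 0.035, edgeR adjusted p = 1.5e-08). *Ctsf* fell by 0.34 (SE 0.041, edgeR adjusted p = 6.17e-07) and *Ctsb* by 0.29 (SE 0.035, edgeR adjusted p = 8.52e-07). *Ctsl*, the most abundant per length of the 5 (88.4 and 87.4 TPM), fell by 0.12 on the log2 scale (SE 0.028, edgeR adjusted p = 0.00164), a call lost when library totals alone scaled the counts. *Ctso* rose by 0.40 (SE 0.12, edgeR adjusted p = 0.00687) and lost its call without any 1 of 5 libraries (replicate 2, 3 or 4 of the control line or replicate 1 or 5 of the knockdown line; adjusted p 0.0143 to 0.0231) and in DESeq2 (0.0116). *Ctsc* had no count, and *Ctsh*, *Ctsk*, *Ctss*, *Ctsw* and *Ctsz* were below the filter.

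Genes whose products bind fetuins or histidine-rich glycoprotein, or act with fetuin-A on mineral, showed both directions. Of 19 listed, 6 passed the filter, with 3 that rose (19.9% of all genes), 2 that fell (19.4%) and a median log2 fold change of 0.34. *Alpl*, the tissue-nonspecific alkaline phosphatase that cleaves the mineralisation inhibitor pyrophosphate, had 246, 276, 297, 256 and 264 normalised counts in the control libraries and 687, 727, 725, 747 and 741 in the knockdown libraries. It rose by a log2 fold change of 1.44 (SE 0.053, edgeR adjusted p = 1.14e-14). *Ank*, a transporter that brings pyrophosphate out of the cell, rose by 0.75 (SE 0.029, edgeR adjusted p = 2.4e-14). *Insr*, the insulin receptor, to which fetuin-A can bind, fell by 0.52 (SE 0.033, edgeR adjusted p = 4.73e-11).

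*Tlr4*, a receptor of innate immunity, fell by 0.32 (SE 0.069, edgeR adjusted p = 0.000551) and *Thbs1* did not pass (0.06, SE 0.13, edgeR adjusted p = 0.744). *Lrp2*, a large endocytic receptor at 23.8 ± 3.31 and 36.5 ± 5.45 normalised counts, was higher by 0.62 (SE 0.18, edgeR adjusted p = 0.00664), but the adjusted p was 0.0109 to 0.0224 without any 1 of 7 libraries (each except replicate 4 of the control line and replicates 1 and 2 of the knockdown line) and 0.0212 in DESeq2. *Astl*, the ovastacin gene that is the target of fetuin-B, had 2 counts in all. *Bmp2*, *Bmp4* and *Mgp*, further genes of mineralisation, had none.

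Since fetuins are made above all by hepatocytes, other plasma protein genes of that cell type were read beside them. *Alb* and *Afp*, its defining products, had no count in any library. Of 31 listed, 10 had no count anywhere and 7 passed the filter, of which 6 fell (19.4% of all genes) and none rose. *Serpina1e*, *C3* and *Apoa1*, with 1 to 7 counts in each knockdown library, passed the filter through the control line, where they were higher, so that this tally depends in part on the filter. With at least 10 counts demanded in every library they left the test, and *Ambp*, *Hp* and *Rbp4* were the 3 called genes of the list. The levels of these plasma protein genes were low. The summed normalised count of the whole list was 373 to 478 in the control libraries and 211 to 242 in the knockdown libraries, against 20628 to 21733 and 10886 to 11153 for *Ahsg* alone.

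*Serpina1e*, which encodes an alpha-1-antitrypsin, fell from 26.7 ± 2.92 to 2.88 ± 2.13 normalised counts (log2 fold change -3.13, SE 0.33, edgeR adjusted p = 9.62e-08). *C3*, the complement component, fell by 2.49 on the log2 scale (SE 0.31, edgeR adjusted p = 1.37e-06). On the same log2 scale *Apoa1*, the main apolipoprotein of high-density lipoprotein, fell by 2.21 (SE 0.36, edgeR adjusted p = 3.37e-05). *Hp*, haptoglobin, fell by 1.19 (SE 0.16, edgeR adjusted p = 2.38e-06). *Ambp* and *Rbp4* also fell, and *F2* did not pass.

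Of 17 transcription factor genes enriched in liver, 13 passed the filter, 4 of which rose (19.9% of all genes), 5 fell (19.4%) and 4 did not pass, with a median log2 fold change of 0.0035. The 3 *Foxa* genes, which encode forkhead factors, moved apart. *Foxa1* was the most abundant of them (4549 ± 216 normalised counts in the control line) and fell by only 0.15 on the log2 scale (SE 0.031, edgeR adjusted p = 0.000549). *Foxa2* rose from 749 ± 34.8 to 1735 ± 64.7 normalised counts (log2 fold change 1.21, SE 0.037, edgeR adjusted p = 5.68e-16). *Foxa3* fell from 56.9 ± 8.64 to 19.9 ± 2.02 (log2 fold change -1.50, SE 0.17, edgeR adjusted p = 2.24e-07). *Nfix* (0.90, SE 0.081, edgeR adjusted p = 1.3e-08) and *Prox1* (0.76, SE 0.040, edgeR adjusted p = 2.89e-12) rose. Whether any of these factors bears on the members was not tested.

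**Figure D5:**
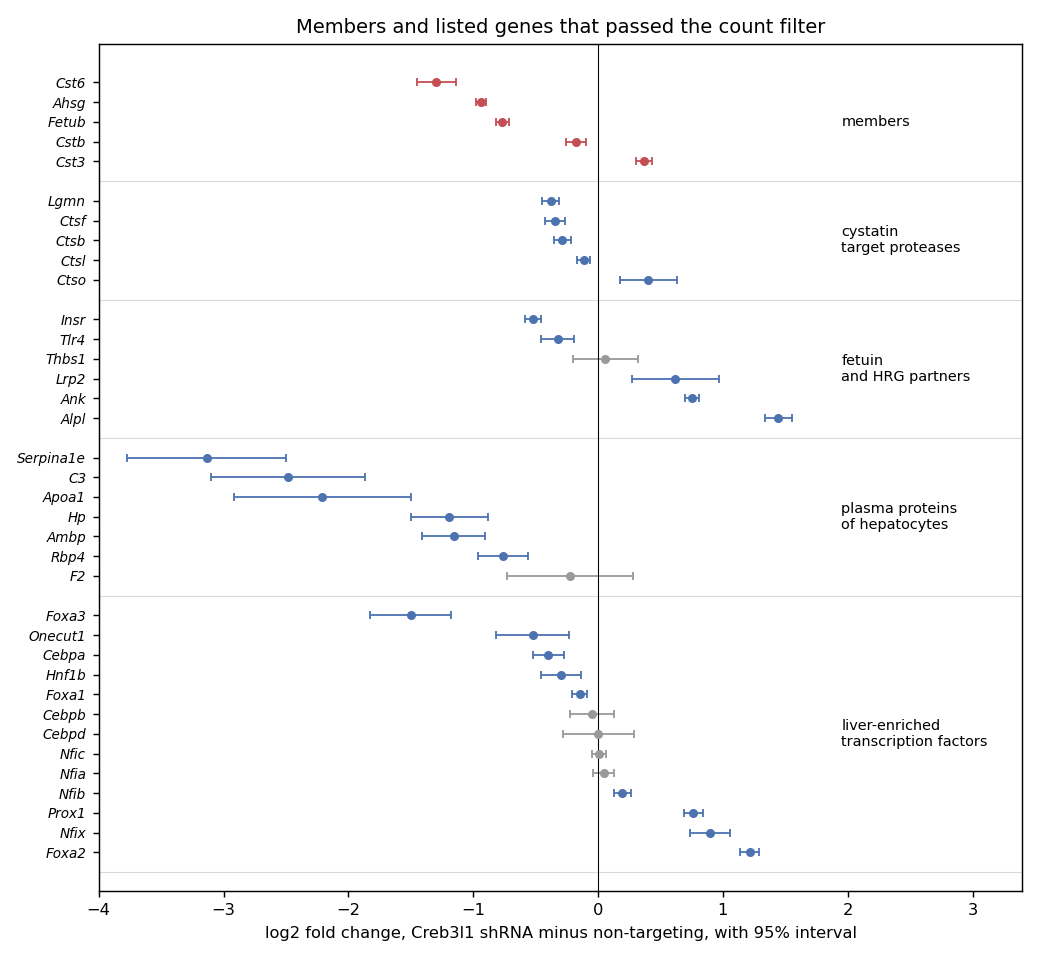
Log2 fold change with 95% interval (1.96 SE, horizontal axis) of the 5 members that passed the count filter (red) and of listed genes that passed it (blue where the edgeR adjusted p was under 0.01, grey otherwise). The proteases lie from -0.38 (*Lgmn*) to 0.40 (*Ctso*). *Alpl* (1.44) and *Ank* (0.75) lie to the right, and 6 of 7 plasma protein genes lie left of *Fetub* or beside it.

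Markers of other cells were mostly low in both lines. Of 6 fibroblast markers 3 passed the filter and 1, *Col1a1*, rose (19.9% of all genes), although its libraries overlapped between the lines. The summed normalised counts of the list were 844 to 1227 in control and 986 to 1776 in knockdown libraries. Of 6 leukocyte and macrophage markers, 1 passed and none was called, the sum was 43.5 to 79.2 against 24.6 to 40.9, and *Ptprc*, *Adgre1* and *Tyrobp* were at 0. Of 4 endothelial markers only *Pecam1* passed the filter, which was lower but lost its call in DESeq2 (adjusted p 0.0192) and without any 1 of 4 libraries (0.0116 to 0.0152; replicates 3 and 4 of the control line, 2 and 4 of the knockdown line). *Pecam1* had 10 to 17 raw counts in each control and 4 to 8 in each knockdown library. It thus passed the filter through the control line, where it was higher. The endothelial sum was 16.95 to 25.7 against 7.49 to 11.03, and *Cdh5* and *Kdr* were at 0. The corticotroph list summed to 149500 to 160700 in control and 107600 to 114300 in knockdown libraries. Most of this sum was *Pomc*, which was lower by 0.51 on the log2 scale. By quantitative PCR the study itself found *Pomc* mRNA unchanged in its *Creb3l1* knockdown lines. Of the 5 tested genes of this list 3 fell (19.4% of all genes) and 1 rose (19.9%). On the log2 scale *Pcsk1* fell by 0.46 and *Tbx19* by 0.27. *Neurod1* rose by 0.62 (SE 0.034, edgeR adjusted p = 6.07e-12), and *Crhr1* did not pass. The part of these differences in the values of the members was not tested.

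The genes whose pattern over the 10 libraries was most like that of each member were sought among the 11000 genes that averaged 100 or more normalised counts, by the root-mean-square (RMS) difference of centred log2 values. Nearest to *Ahsg* were *Lbh*, *Smox*, *Derl1*, *Syngr1* and *Tnfaip3*, at RMS differences of 0.0436 to 0.0464 and with log2 fold changes of -0.89 to -0.998. *Fetub* came at rank 36 from *Ahsg*, at 0.0891, and *Ahsg* at rank 66 from *Fetub*. Nearest to *Fetub* were *Golm1*, *Fbxw2* and *Acsl3* (0.0301 to 0.0447). Close to *Cst6* were *Rgs10* (0.0781) and *Kif19a* (0.109), and *Cst3* was nearest to *Ywhae*, *Cyb561* and *Chgb* (0.037 to 0.0396), the last of which encodes a granin of secretory granules. The measure mostly reflects the step between the lines, so that genes with a like fold change come close.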

How the data were processed

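The authors made poly(A)-selected libraries, used STAR to align the reads (GRCm38) and featureCounts to count them for each gene. They deposited whole-number read counts per gene for 10 libraries, without normalisation, and all values were computed from these. The count table was analysed with R 4.3.3, edgeR 4.0.16 (filterByExpr, TMM, quasi-likelihood test without covariates, Benjamini-Hochberg over 14336 genes, threshold 0.01), DESeq2 1.42.0 as an alternative and Python 3.11.15. Normalised counts are counts over effective library size times the mean effective size. TPM used the union of exons in GENCODE M21. SEs were derived from the fold change with the test's F statistic. The steps were tested on simulated data. Depth of 17420698 to 22205107 counts limits genes with few reads. The methods call the replicates biological, but each group is 1 stable line, so that p-values measure only the spread between these libraries. The members and lists were chosen with earlier results of these data known. Genes named are all members, of each list the 4 called genes with the largest absolute log2 fold change, the tested proteases, the block's neighbours, *Creb3l1* and the genes nearest in pattern, 1 of which is not reported here; other list genes and neighbours were named after their values were seen, as was the TGTTTGC motif. Alternatives were RLE factors, library totals, DESeq2, other filters and thresholds, a replicate block, GC and length offsets, and each library left out.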

Additional observations from a re-analysis of the deposited data

Results flagged for a closer look

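In 7 of 148 groups of 5 libraries examined, 1 library lay far from the other 4 by Dixon's criterion, where chance gives about 1 in 20, or 7.4. *Ahsg* in replicate 2 of the *Creb3l1* shRNA line was at 11150.0 normalised counts, with the others at 10890.0 to 10960.0, a gap that is small beside the distance to the control line. The same library was high for the genes nearest in pattern *Smox* (186.2 against 163.9 to 170.2) and *Tnfaip3* (222.6 against 200.8 to 205.8). Both genes were picked for their likeness to *Ahsg* over these same libraries, so that a shared high value is not independent of that choice. *Dnajb11* in replicate 3 of the *Creb3l1* shRNA line was low at 3586 (others 3811 to 3859), and *Serpina1e* in replicate 2 of the non-targeting line was high at 31.79 (others 24.41 to 26.15). The TMM scaling factor was low in replicate 3 of the non-targeting line, at 0.953 against 1.005 to 1.007, the library with 4.13% of its counts in *Gm42418*. In replicate 1 of the *Creb3l1* shRNA line the factor was 0.9997 against 1.005 to 1.006.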

How the results depend on the processing

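Of 85 refits of the 5 tested members, 81 moved the log2 fold change by less than 1 SD between replicates, and none changed a direction. The exceptions came from offsets for GC content and gene length, which gave -0.836 for *Ahsg*, -0.6714 for *Fetub*, 0.5114 for *Cst3* and -0.0606 for *Cstb*. A minimum of 1.5-fold left 1088 of the 5628 called genes, 0 proteases, 3 fetuin and HRG partners, 4 liver-enriched transcription factors and 2 chromosomal neighbours, by construction. At least 10 counts in every library left 0 other cystatin genes and 3 plasma protein genes, because fewer genes were tested. Libraries with the same replicate number did not deviate together (correlations of deviations from -0.060 to 0.037), and with the number as a replicate block 5680 genes were called and the value of *Ahsg* was -0.938; *Lrp2* lost its call. Of 1149 refits of 68 named genes that are not members, 1089 kept direction and call, 41 lost the call, 10 gained it and 9 reversed, all 9 for genes not called. *Eif1ad* reversed to 0.0011 with library totals and 0.032 with the offsets, and with each library left out in turn it ranged from -0.024 to 0.011, *Gal3st3* from -0.26 to 0.05033, *Gm24616* from -0.27 to 0.014 and *Zfp937* from -0.13 to 0.15. Depth limits *Hrg* and most listed plasma protein genes, of which 24 of 31 were not tested.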
